A study of Mus musculus with 24 samples.

Results

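The 10 genes described here were measured in kidneys of mice with a proximal tubule-specific deletion of Lrp2, fed a Western diet. They are Cdkn1a, Cdkn2a, Cdkn2b, Mdm2, Ccng1, Gdf15, Bax, Phlda3, Eda2r and Trp53inp1, a list of p53 target genes and of cyclin-dependent kinase inhibitors used as senescence markers. They were taken by symbol, and each of the 10 matched 1 of the 54532 Ensembl gene identifiers in the deposited count files. The assay was RNA sequencing of whole kidney, with 24 libraries. The knockout (KO) mice lacked Lrp2, which encodes the endocytic receptor megalin, in proximal tubule cells, and wild-type (WT) littermates were compared with them. Every mouse was fed Western diet, for either 2 or 12 weeks, and the 4 groups (KO at 2 weeks, WT at 2 weeks, KO at 12 weeks, WT at 12 weeks) held 6 libraries each. The labels also write the genotypes as LRP2-SM22 -/- and +/+ without explaining that name, and the sources used here do not state the Cre driver, strain, sex or age. That the deletion was specific to the proximal tubule is taken from the series title and design text and was not tested. Libraries of mice on another diet were not analysed here, so diet itself is not compared. Whether each library came from a separate mouse is not stated, and p-values measure the spread between these libraries.

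The transcription factor p53 is held at a low level by Mdm2, the ubiquitin ligase that it also induces, and it accumulates after DNA damage and other stresses. Its targets include Cdkn1a, whose product p21 inhibits the cyclin-dependent kinases that drive cells into S phase, and genes that promote apoptosis. The Cdkn2a and Cdkn2b products p16 and p15 inhibit Cdk4 and Cdk6, and the alternative Cdkn2a product p19Arf inhibits Mdm2. In injured kidneys, tubule cells that remain arrested with high p21 or p16 are a known feature of poor repair.

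The promoters of these genes were searched for the p53 half-site consensus, the 10-base motif that p53 binds as a pair of copies. Windows from 250 bases before to 50 bases after a gene start came from RefSeq (GRCm38.p6, the assembly known as mm10), which held 12 windows for 9 of the 10 genes. The motif reads the same on both strands, so 1 search covers both, and neighbouring or overlapping matches were counted. A full site was taken as a pair of half-sites with the central C and G kept, 0 to 13 bases apart, with at most 2 mismatches in all. An exact half-site stood in 4 of the 12 windows, against 8.36% of all 32851 windows, and a full site in 3 of the 12, against 4.09% of all windows. Of the 4 genes with a match, Cdkn1a rose in knockout kidneys at both times. Bax was called higher at 12 weeks only, and Ccng1 and Mdm2 at neither time. Cdkn2b, Gdf15, Phlda3 and Eda2r also rose at both times, without a match in their windows. Sequences are shown for the 4 genes with a match. Each reads 5′ to 3′ on the gene's strand, and capitals mark the half-sites. The stretch of Cdkn1a lies on the plus strand at chr17:29090886-29090967, and those of Ccng1 (chr11:40755442-40755506), Bax (chr7:45467059-45467134) and Mdm2 (chr10:117710915-117710964) lie on the minus strand.
Cdkn1a: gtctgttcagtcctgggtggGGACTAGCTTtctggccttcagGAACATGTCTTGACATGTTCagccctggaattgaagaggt
Ccng1: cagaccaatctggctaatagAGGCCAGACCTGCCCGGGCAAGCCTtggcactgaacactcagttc
Bax: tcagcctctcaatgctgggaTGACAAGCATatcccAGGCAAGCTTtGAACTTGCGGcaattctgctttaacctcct
Mdm2: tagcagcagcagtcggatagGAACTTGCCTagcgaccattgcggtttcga
Cdkn1a held a full site without mismatch, its half-sites starting 73 and 51 bases before the gene start with a spacer of 12 bases, a match found in 24 of all windows (0.0731%). The last half-site, starting 41 bases before the gene start, follows directly on the one before it, and that pair has 1 mismatch. Ccng1 held a pair with 1 mismatch and no spacer, Bax a pair with 2 mismatches and a spacer of 1 base, and Mdm2 a single exact half-site. The capitals of Ccng1 and Bax also mark a further pair each, with 2 mismatches and a spacer of 5 bases. In Ccng1 the first half-site of that pair overlaps the next half-site. The windows of Cdkn2a, Cdkn2b, Gdf15, Phlda3 and Eda2r and the other window of Cdkn1a held no such match. A match in letters is not a measured binding site, and a window without one says nothing of sites elsewhere in the gene.

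Levels below are in CPM, read counts per megacount (M) of the TMM-scaled library total, with mean ± SD over 6 libraries. Library totals were 16.3 to 25.2 M in KO and 15.6 to 34.1 M in WT at 2 weeks, and 11.3 to 15.2 M in KO and 11.4 to 14.5 M in WT at 12 weeks. Each log2 fold change is KO over WT from edgeR's quasi-likelihood test with its standard error (SE), adjusted by Benjamini-Hochberg over 17286 genes, and a gene was called at an adjusted p under 0.05. Lrp2 itself averaged 352 ± 142 CPM in KO and 2000 ± 262 CPM in WT at 2 weeks, and 322 ± 73.1 CPM in KO and 1870 ± 382 CPM in WT at 12 weeks, without overlap at either time. Leukocyte markers moved with genotype too: 12 of 16 were higher in KO at each time and their summed level was 911 to 1900 CPM in KO and 290 to 377 CPM in WT at 2 weeks, and 1100 to 2440 CPM in KO and 272 to 598 CPM in WT at 12 weeks. All 10 tubular injury markers were higher in KO at both times, summing to 6010 to 12100 CPM in KO and 670 to 919 CPM in WT at 2 weeks. At 12 weeks these sums were 2870 to 6150 CPM in KO and 572 to 706 CPM in WT. Of 10 proximal tubule markers 8 were lower at 2 weeks and 9 at 12 weeks, with sums of 5130 to 7970 CPM in KO and 8490 to 11100 CPM in WT at 2 weeks. Beside these marker counts, 18.2% of all genes tested were called higher and 13.4% lower at 2 weeks. At 12 weeks the shares were 20.7% and 17.7%. In whole kidney, a changed share of a cell type and a changed amount of RNA per cell cannot be told apart. The part of these marker shifts in the results below was not tested. Of 8 markers of adrenal, fat, urothelial and smooth muscle tissue, the adrenal genes Cyp11b1 and Cyp11b2 were at 0 in all 24 libraries. Star averaged 5.07 CPM in KO and 5.4 CPM in WT at 2 weeks, and Star, Upk1b and Upk3a were called at neither time. The adipocyte genes Adipoq (5.88 ± 7.02 CPM in KO, 0.272 ± 0.585 CPM in WT) and Plin1 (7.69 ± 9.23 and 0.406 ± 0.995 CPM) were called higher at 12 weeks. Myh11 was called lower at 2 weeks (log2 fold change -0.76). The part of such tissue in the results was not tested.

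After 2 weeks, 5 of the 9 genes that passed the filter on low counts were higher in KO kidneys and 4 were not called: Cdkn1a, Cdkn2b, Gdf15, Phlda3 and Eda2r rose by 2.19- to 4.56-fold, while Mdm2, Ccng1, Bax and Trp53inp1 differed by 1.07- to 1.16-fold without passing the test. Among all genes tested, 18.2% were called higher and 31.6% in either direction at 2 weeks. After 12 weeks the 5 rose by 2.61- to 4.9-fold, and Bax and Trp53inp1 were called as well, at 1.31- and 1.45-fold, so that 7 of 9 were higher, where 20.7% of all genes were called higher and 38.5% in either direction. Thus 5 of the 9 were higher at both times, as were 14.5% of all genes, and Mdm2 and Ccng1 were called at neither. Of the 9, 4 at 2 weeks and 5 at 12 weeks had every KO library above every WT library, a pattern found in 10.3% and 10.1% of all genes. The median log2 fold change of the 9 was 1.13 at 2 weeks and 1.39 at 12 weeks, against -0.01 and 0.00 over all genes tested. The tenth gene, Cdkn2a, did not pass the filter, and its counts are given on their own.

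**Figure D1:**
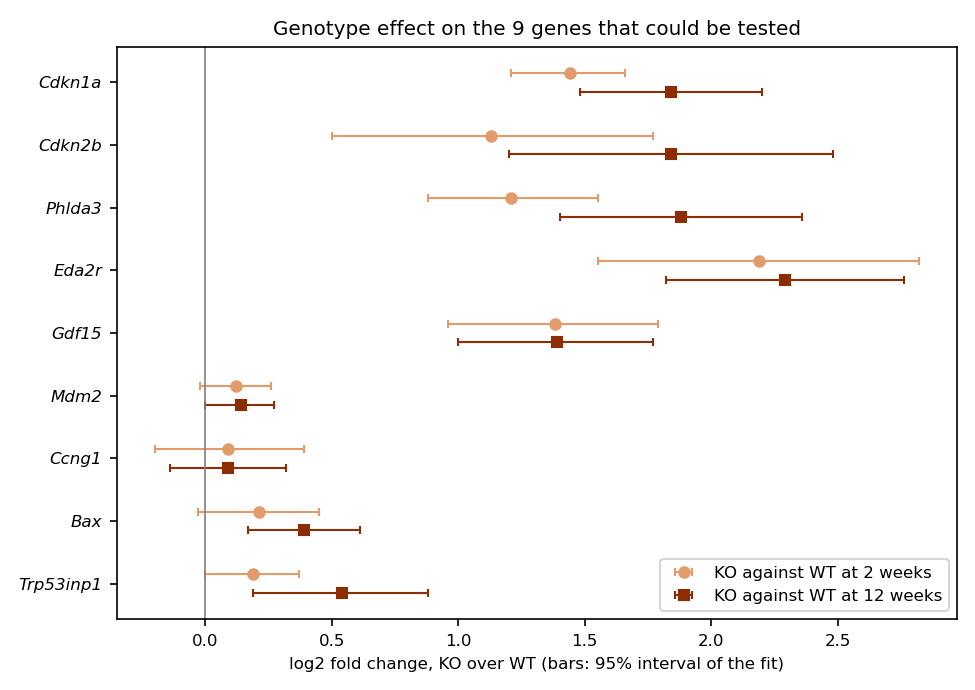
Log2 fold change of KO over WT (horizontal axis) for the 9 genes that could be tested, with circles for 2 weeks, squares for 12 weeks and bars for the 95% interval of the fit. Cdkn1a, Cdkn2b, Phlda3, Eda2r and Gdf15 lie between 1.13 and 2.29 at both times, and Mdm2, Ccng1, Bax and Trp53inp1 between 0.09 and 0.54.

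Cdkn1a (ENSMUSG00000023067, mm10 chr17:29090976-29100727, plus strand) encodes p21, the inhibitor best known as a direct p53 target. After 2 weeks its level was 21.5 CPM in the lowest, 26.5 CPM in the median and 28 CPM in the highest KO library, against 8.35, 9.28 and 12.9 CPM in WT libraries. At 12 weeks the same 3 values were 24.7, 29.5 and 30.9 CPM in KO libraries, against 4.19, 8.84 and 10.4 CPM in WT libraries. KO and WT libraries did not overlap at either time, and the KO libraries lay close together, with a coefficient of variation of 9.68% at 2 weeks and 7.5% at 12 weeks. The log2 fold change was 1.44 (SE 0.11, adjusted p = 2.1e-08) at 2 weeks and 1.84 (SE 0.17, adjusted p = 3.2e-06) at 12 weeks. A gene of unknown status on the opposite strand, AC167363.2, covers 7.7% of the exonic bases of Cdkn1a, and without known strand handling reads there cannot be assigned to 1 of them.

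Cdkn2b and Cdkn2a lie side by side on the minus strand of chromosome 4 (mm10 chr4:89306299-89311039 and chr4:89274471-89294653). Cdkn2b, which encodes p15, reached 2.88, 3.68 and 7.34 CPM in the lowest, median and highest KO library at 2 weeks, against 0.93, 1.93 and 3.05 CPM in WT libraries. At 12 weeks it reached 3.52, 4.19 and 5.42 CPM in KO libraries, against 0.335, 1.07 and 2.07 CPM in WT libraries. The groups overlapped at 2 weeks and were apart at 12 weeks. Its log2 fold change was 1.13 (SE 0.30, adjusted p = 0.00772) at 2 weeks and 1.84 (SE 0.30, adjusted p = 2.9e-04) at 12 weeks.

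Cdkn2a, whose gene-level count mixes p16 and p19Arf transcripts, was at the edge of detection. At 2 weeks it had 19 counts over the 6 KO libraries, 5 of them with a count, against 2 counts over the 6 WT libraries. At 12 weeks it had 41 counts in KO, with counts in all 6 libraries, against 4 counts in 2 of the 6 WT libraries. Per library this was 0 to 0.253 CPM in KO and 0 to 0.062 CPM in WT at 2 weeks, overlapping, and 0.246 to 0.696 CPM in KO and 0 to 0.197 CPM in WT at 12 weeks, not overlapping. The ratio of summed levels was 9.34 (95% interval 2.25 to 82.7) at 2 weeks and 7.89 (2.86 to 30.3) at 12 weeks, intervals that cover counting error only, since PCR copies are not independent molecules. An exact two-sided permutation test over the 6 and 6 libraries gave p = 0.0281 at 2 weeks and p = 0.00216 at 12 weeks, the second being the smallest value that 924 permutations allow. That test was chosen after the values were seen. Without the filter, edgeR's adjusted p for Cdkn2a was 0.0468 at 2 weeks and 0.00422 at 12 weeks, on fitted log2 fold changes of 2.82 and 2.80.

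**Figure D2:**
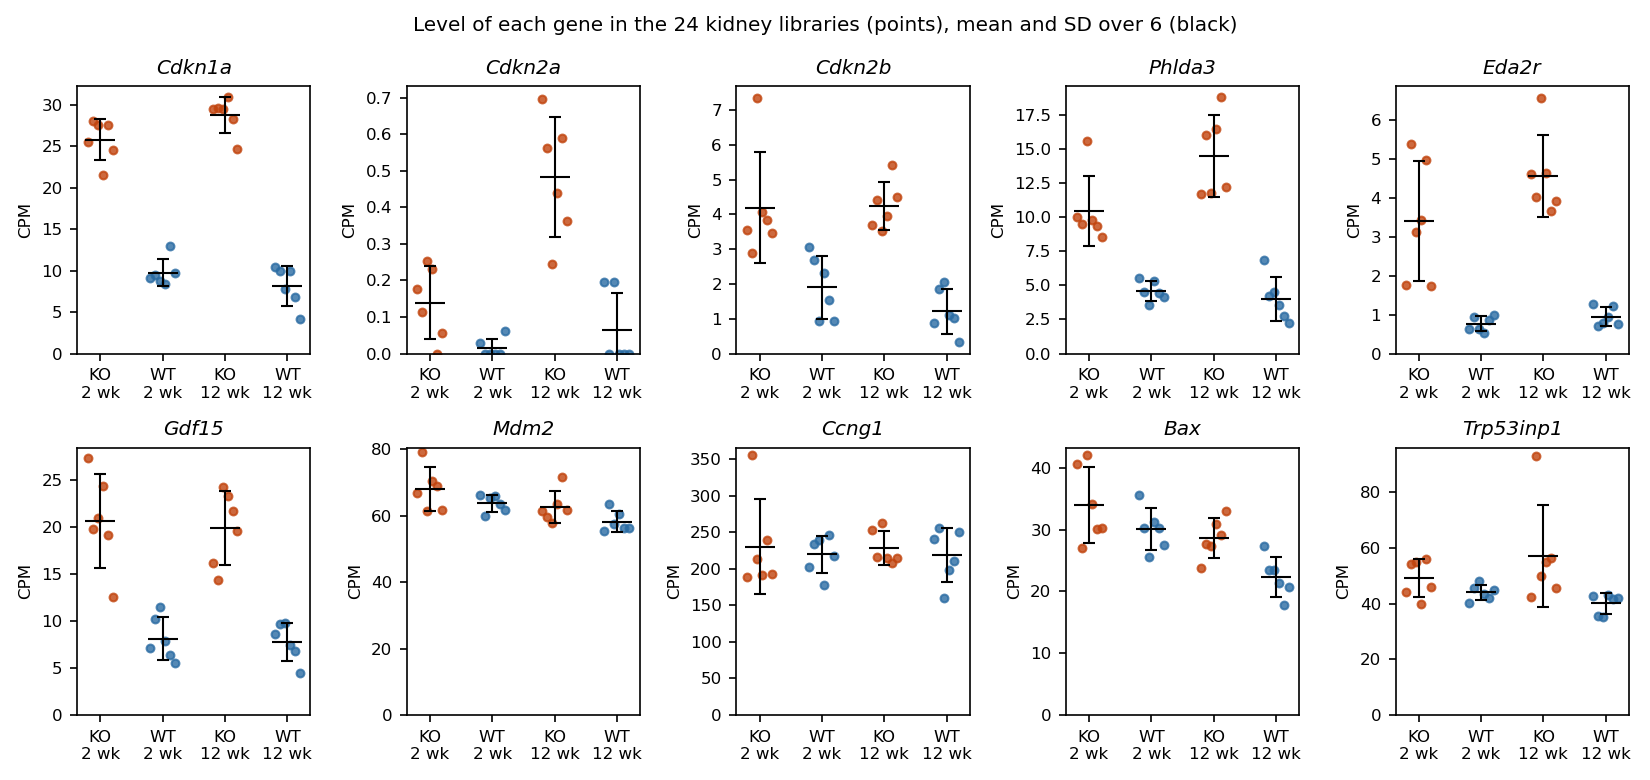
CPM of each of the 10 genes (vertical axes, linear and starting at 0) in the 6 libraries of each group, KO left of WT at each time, with points for libraries and black bars for mean and SD. Cdkn1a, Phlda3, Eda2r and Gdf15 separate KO from WT at both times, Cdkn2a stays below 0.7 CPM, and the Mdm2, Ccng1 and Bax libraries of KO and WT overlap.

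Gdf15, a secreted stress cytokine of the TGF-beta family that is induced by p53 and by the integrated stress response, was higher in KO kidneys to nearly the same extent at both times. At 2 weeks its lowest, median and highest KO libraries had 12.6, 20.4 and 27.3 CPM, against 5.58, 7.51 and 11.5 CPM in WT libraries. The 12-week values were 14.4, 20.6 and 24.2 CPM in KO libraries, against 4.44, 8.02 and 9.74 CPM in WT libraries. No KO library fell into the WT range at either time. The log2 fold change was 1.38 (SE 0.19, adjusted p = 6.1e-05) at 2 weeks and 1.39 (SE 0.18, adjusted p = 5.8e-05) at 12 weeks.

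Phlda3 encodes a small pleckstrin homology domain protein that restrains Akt, and it is a direct p53 target. It had 8.56, 9.66 and 15.6 CPM in the lowest, median and highest KO library at 2 weeks, against 3.58, 4.47 and 5.57 CPM in WT libraries. At 12 weeks KO libraries had 11.7, 14.1 and 18.8 CPM, against 2.26, 3.89 and 6.83 CPM in WT libraries. The groups were apart at both times. Its log2 fold change was 1.21 (SE 0.16, adjusted p = 1.3e-05) at 2 weeks and 1.88 (SE 0.23, adjusted p = 3.1e-05) at 12 weeks.

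Eda2r, the X-linked receptor for the ectodysplasin isoform EDA-A2 and a p53 target, had the largest fold change of the 9 genes at both times and was also the least abundant of them per kilobase of exon. Its KO libraries held 1.73, 3.27 and 5.37 CPM at the lowest, median and highest at 2 weeks, against 0.516, 0.754 and 0.992 CPM in WT libraries. At 12 weeks the values were 3.65, 4.31 and 6.56 CPM in KO libraries, against 0.708, 0.86 and 1.27 CPM in WT libraries. The groups did not overlap, although KO libraries at 2 weeks varied widely, with a coefficient of variation of 45.3%. The log2 fold change was 2.19 (SE 0.30, adjusted p = 2.2e-05) at 2 weeks and 2.29 (SE 0.22, adjusted p = 4.1e-06) at 12 weeks. Its ligand gene Eda averaged 1.74 ± 0.358 CPM in KO and 1.6 ± 0.462 CPM in WT at 2 weeks and was not called at either time (adjusted p = 0.667 and 0.469).

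Mdm2 and Ccng1, both direct p53 targets that feed back on p53, were not called at either time. Mdm2 averaged 68 ± 6.59 CPM in KO and 63.8 ± 2.51 CPM in WT at 2 weeks, and 62.6 ± 4.74 CPM in KO and 58.2 ± 3.14 CPM in WT at 12 weeks. The groups overlapped, and the log2 fold change was 0.12 (95% interval -0.02 to 0.26, adjusted p = 0.196) at 2 weeks and 0.14 (0.00 to 0.27, adjusted p = 0.1) at 12 weeks. A rise of Mdm2 as large as that of Cdkn1a at the same time lies outside these intervals. Ccng1, which encodes cyclin G1, was the most abundant of the 10 genes per kilobase of exon. It averaged 230 ± 64.6 CPM in KO and 220 ± 25.8 CPM in WT at 2 weeks, and 228 ± 23.3 CPM in KO and 219 ± 37.1 CPM in WT at 12 weeks. Its log2 fold change was 0.09 (95% interval -0.20 to 0.39, adjusted p = 0.664) at 2 weeks and 0.09 (-0.14 to 0.32, adjusted p = 0.555) at 12 weeks. Without replicate 2 of the KO libraries at 2 weeks, which held 356 CPM, the 2-week value was -0.07.

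Bax, the effector that permeabilises the outer mitochondrial membrane, was called at 12 weeks but not at 2 weeks. At 12 weeks it had 23.8, 28.4 and 33 CPM in the lowest, median and highest KO library, against 17.8, 22.4 and 27.4 CPM in WT libraries, a log2 fold change of 0.39 (SE 0.10, adjusted p = 0.00826). At 2 weeks it averaged 34 ± 6.14 CPM in KO and 30.1 ± 3.41 CPM in WT, with a log2 fold change of 0.21 (SE 0.11, adjusted p = 0.178). The groups overlapped at both times. The interaction, the difference between the 12-week and the 2-week log2 fold change of KO over WT, was 0.18 for Bax (SE 0.16, adjusted p = 0.71), so the 2 effects were not shown to differ. Bax shares 12.2% of its exonic bases with Gm45808 on the same strand, where reads may have been split or dropped in counting.

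Trp53inp1, a nuclear stress protein that binds p53 and is induced by it, followed the same course. At 12 weeks it had 42.5, 52.5 and 93.2 CPM in the lowest, median and highest KO library, against 35.2, 41.9 and 43.2 CPM in WT libraries, a log2 fold change of 0.54 (SE 0.16, adjusted p = 0.0184). Replicate 2 of the KO libraries carried the value of 93.2 CPM, and that library also had the highest summed leukocyte markers (2440 CPM) and the highest sum of mitosis and replication genes (334 CPM). Without it the log2 fold change was 0.35 (adjusted p = 0.0074). The 2-week level averaged 49.2 ± 6.76 CPM in KO and 44.1 ± 2.81 CPM in WT, with a log2 fold change of 0.19 (SE 0.09, adjusted p = 0.114). That value became a call, 0.24 with an adjusted p of 0.0311, when replicate 4 of the KO libraries was left out.

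**Figure D3:**
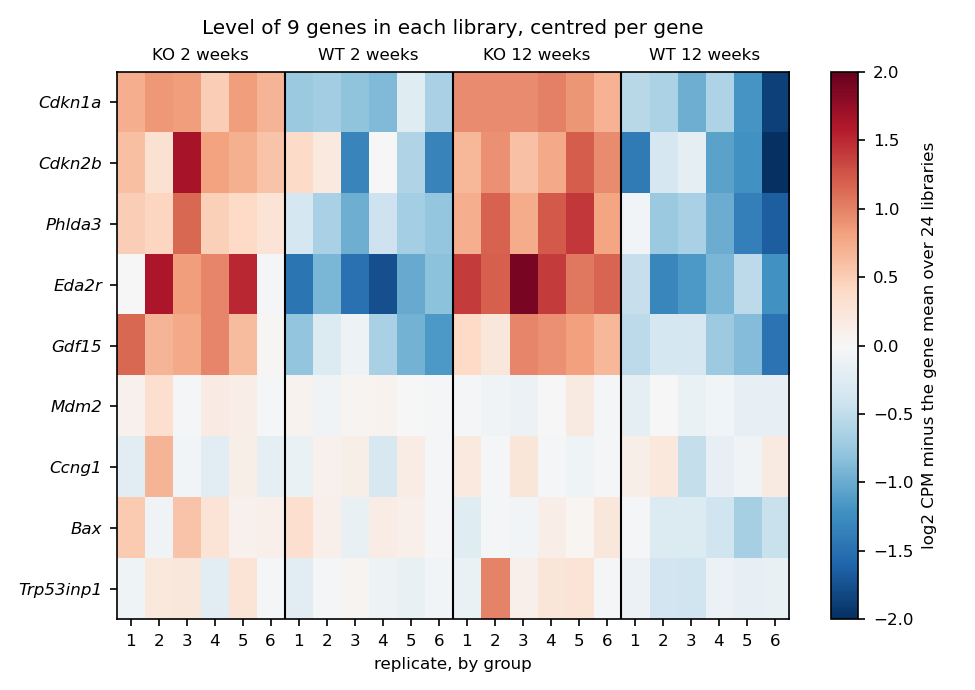
Log2 CPM of the 9 tested genes minus each gene's mean over the 24 libraries, from blue (-2) to red (2), with replicates 1 to 6 of each group in columns, KO left of WT at each time. The upper 5 rows are mostly red in KO and mostly blue in WT, with Cdkn2b in replicates 1 and 2 of WT at 2 weeks and Eda2r in replicates 1 and 6 of KO at 2 weeks as exceptions, the lower 4 are mostly pale, and the isolated red cell of Trp53inp1 is replicate 2 of KO at 12 weeks, at 93.2 CPM.

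Set per kilobase of exon, the levels of the 10 genes spanned a wide range. In KO kidneys at 2 weeks the mean level per kilobase ran from Ccng1 (65.5 CPM per kb) through Bax (21.6), Mdm2 (13.4), Gdf15 (11.2), Trp53inp1 (7.59), Cdkn1a (7.24), Phlda3 (6.71), Cdkn2b (3.01) and Eda2r (0.577) to Cdkn2a (0.118). The libraries of Mdm2 overlapped with those of Gdf15, Gdf15 with Trp53inp1, Trp53inp1 with Cdkn1a and Cdkn1a with Phlda3, and the other neighbours in this order did not overlap. In WT kidneys at 2 weeks Cdkn1a (2.74 CPM per kb) and Phlda3 (2.95) stood below Trp53inp1 (6.81) without overlap, and Gdf15 was at 4.39 CPM per kb. At 2 weeks the mean levels per kilobase of Cdkn1a, Phlda3, Cdkn2b, Eda2r and Cdkn2a were thus below those of Ccng1, Bax, Mdm2 and Trp53inp1 in both genotypes.

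Whether the genotype difference depended on time was tested by the interaction in 1 fit of all 24 libraries. It called 0 of the 9 genes, and 0.174% (30) of all genes tested. DESeq2 also called 0 of the 9. At an unadjusted p under 0.05 edgeR's interaction had 1835 genes, and Phlda3 was the only one of the 9. Its interaction was 0.67 (SE 0.28, unadjusted p = 0.022, adjusted p = 0.368). Cdkn2b had 0.71 (95% interval -0.21 to 1.62, adjusted p = 0.594) and Cdkn1a 0.41 (-0.00 to 0.81, adjusted p = 0.472). The interval for Gdf15, around 0.01, was -0.56 to 0.58.

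Setting 12 against 2 weeks within a genotype compares times that cannot be told apart from library handling or from read processing and counting. The predicted gene Gm42418 had 71635 to 424892 counts per KO library and 86843 to 401812 counts per WT library at 12 weeks. It had 0 counts in each 2-week library, and which step made this difference was not tested. Among KO libraries Phlda3 was the 1 gene of 9 called, where 33.8% of all genes were called and 17.7% were higher, with a log2 fold change of 0.47 (SE 0.18, adjusted p = 0.0499). That call was lost under 5 of 6 alternative settings and in 17 of 24 fits that left out 1 library. Among WT libraries Bax was lower at 12 weeks (log2 fold change -0.43, SE 0.11, adjusted p = 0.00412), the 1 gene of 9 called, where 30.4% of all genes were called and 14.7% were lower. Cdkn2a counts in KO were 41 at 12 weeks and 19 at 2 weeks, a ratio of summed levels of 3.32 (95% counting interval 1.88 to 6.06) with an exact two-sided permutation p of 0.00433 over 6 and 6 libraries. In WT the summed level was 0.0623 CPM (4 counts) at 12 weeks and 0.0158 CPM (2 counts) at 2 weeks. A rise with time particular to KO was therefore not shown.

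Of the genes around p53, Trp53 itself was higher in KO kidneys at both times, with 44.5 ± 2.27 CPM in KO and 32.4 ± 2.49 CPM in WT at 2 weeks and a log2 fold change of 0.49 (SE 0.07, adjusted p = 3.1e-05). At 12 weeks it had 40.6 ± 5.81 CPM in KO and 30.4 ± 2.55 CPM in WT, a log2 fold change of 0.45 (SE 0.09, adjusted p = 0.00169). KO and WT libraries of Trp53 were apart at 2 weeks and overlapped at 12 weeks. In a list of 20 p53 regulators, 19 were tested. At 2 weeks 4 were higher, where 18.2% of all genes were, and at 12 weeks 2 were higher and 3 lower, where 20.7% and 17.7% of all genes were. These counts are near or below the shares over all genes. Chek1, the S-phase checkpoint kinase, was higher at both times (log2 fold change 0.80 and 1.13). The kinase genes Hipk2 (-0.40) and Prkdc (-0.24) and the DNA repair gene Nbn (-0.23) were lower at 12 weeks. The median of the list was -0.04 at 2 weeks and 0.01 at 12 weeks, close to that of all genes.

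A further 33 p53 target genes moved in part. Of 32 tested, 14 were higher and 2 lower in KO at 2 weeks, and 13 were higher and 4 lower at 12 weeks, beside the 18.2% and 20.7% of all genes called higher and the 13.4% and 17.7% called lower. Their median log2 fold change was 0.15 at 2 weeks and 0.28 at 12 weeks. Pmaip1, which encodes the BH3-only protein Noxa, had 26.6 ± 3.63 CPM in KO and 10.3 ± 1.08 CPM in WT at 2 weeks (log2 fold change 1.39) and was also higher at 12 weeks (1.16). Psrc1, a microtubule-associated protein gene, was low in WT and rose by a log2 fold change of 2.20 at 2 weeks and 3.13 at 12 weeks. Btg2, an antiproliferative gene, rose by 0.93 and 1.22. Gadd45a, a DNA damage response gene, rose by 0.66 at 2 weeks and at 12 weeks had a log2 fold change of 0.35 that was not called (adjusted p = 0.0899). Rrm2b (-0.28 and -0.41), a ribonucleotide reductase subunit, and Perp (-0.17 and -0.35), a desmosome-associated gene, were lower at both times. Ei24 (-0.26) and the repair gene Xpc (-0.28) were lower at 12 weeks. In this list, as among the 10 genes, strong rises stood beside targets that were not called. The numbers of lower genes were below the shares over all genes and are not read as a result for the list.

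**Figure D4:**
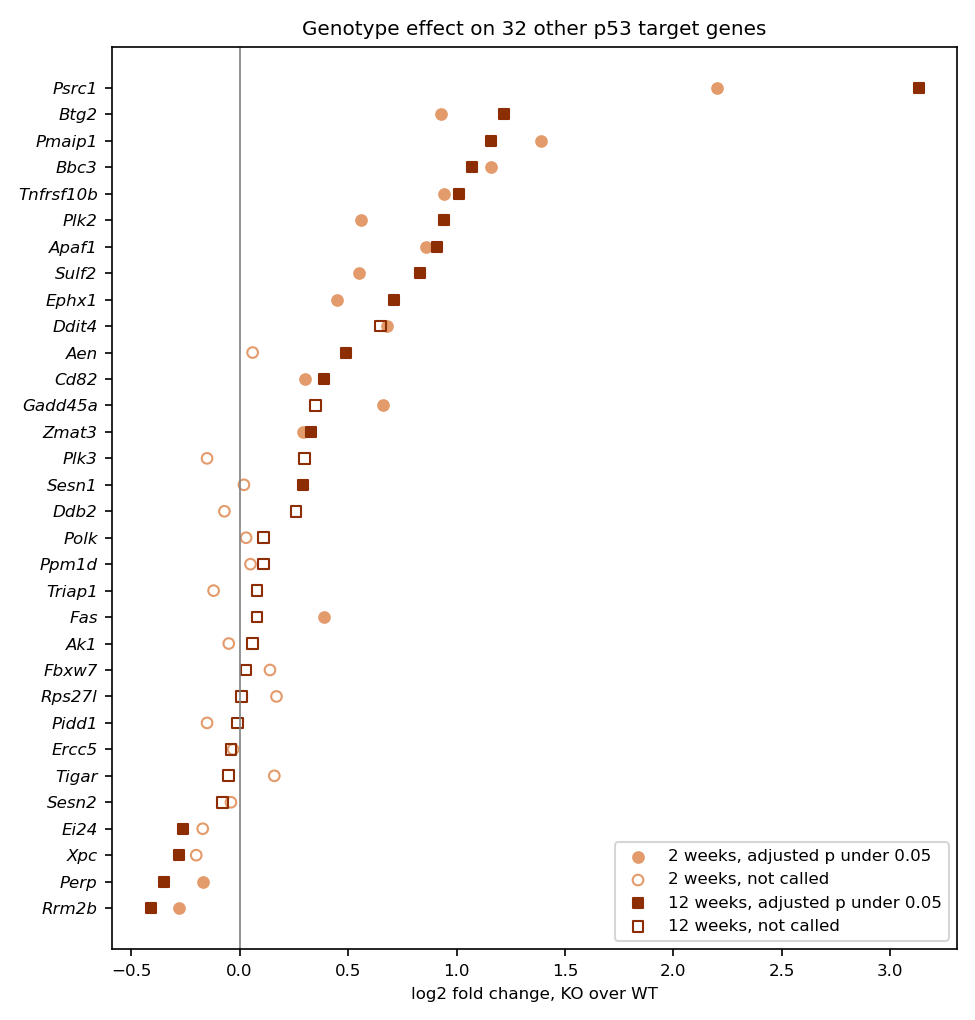
Log2 fold change of KO over WT (horizontal axis) for 32 other p53 target genes, with circles for 2 weeks, squares for 12 weeks and filled symbols for an adjusted p under 0.05. The list runs from Psrc1 at 3.13 to Rrm2b at -0.41 at 12 weeks, with 13 genes called higher and 4 lower.

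Among the apoptosis regulators related to Bax, 11 of 12 were tested, and 4 were higher and 2 lower at 2 weeks, 4 higher and 3 lower at 12 weeks, where 18.2% and 13.4% of all genes were called higher and lower at 2 weeks and 20.7% and 17.7% at 12 weeks. With so few genes, these counts are not read as a result for the list. The antiapoptotic gene Mcl1 was higher at both times (log2 fold change 0.58 and 0.55), as were the effector gene Bak1 (0.42 and 0.75) and the BH3-only gene Bmf (0.67 and 1.13). The BH3-only gene Bid (-0.55 and -0.69) and the antiapoptotic gene Bcl2l2 (-0.29 and -0.24) were lower at both times, and Bcl2l1 (-0.23), which encodes Bcl-xL, was lower at 12 weeks.

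The remaining cyclin-dependent kinase inhibitor genes made up a list of 5. Of these, Cdkn3 was higher at 2 weeks and Cdkn3 and Cdkn1c at 12 weeks, beside the 18.2% and 20.7% of all genes called higher. With 5 genes, these counts are not read as a result for the list. Cdkn3, whose phosphatase product acts on Cdk2 and which is transcribed in cycling cells, had 0.899 ± 0.287 CPM in KO and 0.341 ± 0.317 CPM in WT at 2 weeks. Cdkn1c, which encodes p57, had 37.3 ± 6.04 CPM in KO and 28 ± 4.71 CPM in WT at 12 weeks (log2 fold change 0.44, adjusted p = 0.00962). Cdkn1b, Cdkn2c and Cdkn2d were called at neither time, with log2 fold changes between -0.13 and 0.33.

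Cell division genes were higher in KO kidneys, as were Cdkn1a and Cdkn2b. All 20 genes of a mitosis and replication list were higher in KO at 2 weeks and 19 at 12 weeks, with a median log2 fold change of 1.61 and 1.73. Their summed level was 166 to 249 CPM in KO and 93.3 to 119 CPM in WT at 2 weeks, and 159 to 334 CPM in KO and 90.4 to 111 CPM in WT at 12 weeks. The centromere protein gene Cenpf (2.05 and 1.92), the replicative helicase genes Mcm3 (1.52 and 1.30) and Mcm5 (1.47 and 1.46) and the mitotic cyclin gene Ccnb2 (1.80 and 1.79) had the smallest p-values at 2 weeks. Of 18 cyclin, kinase, Rb and E2F genes, 9 were higher and 1 lower at 2 weeks, and 10 higher and 1 lower at 12 weeks. Beside both lists, 18.2% of all genes were called higher and 13.4% lower at 2 weeks, and 20.7% and 17.7% at 12 weeks. E2f8 (2.29 and 3.12), E2f7 (1.63 and 2.48) and Ccna2 (1.26 and 1.70) were higher at both times and Cdk6 (0.55) at 2 weeks, whereas Ccnd1 (-0.42) was lower at 2 weeks and Rbl2 (-0.24) at 12 weeks. Whether the inhibitor transcripts and the division transcripts lie in the same cells cannot be told apart in whole-kidney RNA.

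Over the 24 libraries, the genes whose pattern was most like that of Cdkn1a were sought among 13547 genes by the root mean square difference of centred log2 CPM. With the 10 genes themselves left out, they were Lgals3 (0.29), Tmsb4x, Plet1 and H2-Q10 (0.31 each) and Rgs10 (0.32), and reads of H2-Q10 may be shared with its close paralogs. Of the other tested genes followed here, Phlda3 was nearest (0.31, with 4 of the 13547 genes nearer), then Gdf15 (0.40, 54 nearer), Eda2r (0.51, 357 nearer) and Cdkn2b (0.53, 431 nearer). Trp53inp1 (0.74), Bax (0.76), Mdm2 (0.82) and Ccng1 (0.86) were farther away. Libraries of the same group share genotype and time, so these distances describe the pattern and were not tested.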

How the data were processed

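Per the submitters' processing notes, reads were handled with fastp, STAR 2.5 and HTSeq 0.6.1 on mm10. The sources used here state neither options nor strand setting nor annotation release. Per the labels' protocols, RNA came from a Maxwell RSC simplyRNA kit and libraries from a NEBNext Ultra RNA kit. The deposited files hold raw counts per Ensembl gene, 1 library each, without normalization. Symbols, positions and exon lengths came from GENCODE M21, and promoter windows from RefSeq.

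Tests on counts used TMM scaling and the robust quasi-likelihood F test (two-sided) of edgeR 4.0.16 under R 4.3.3. Of all genes 17286 passed filterByExpr, set to a minimum count of 10 and a minimum total of 15. Genotype was fitted on the 12 libraries of each duration, and the interaction and duration on all 24. The SE is the absolute log2 fold change over the square root of F, and 95% intervals use the t distribution with the fit's degrees of freedom. Distances used log2 CPM with a prior count of 2. The statistics were tested on simulated data. No libraries were duplicates. Same-numbered libraries had residual correlations of -0.104 to 0.171, so numbers were not taken as pairs. The alternatives were a replicate block, each library left out in turn, 1 fit of all 24 libraries, DESeq2 1.42.0, upper-quartile or RLE scaling, and a filter at a mean of 1 CPM or none.

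The genes and lists were chosen with earlier results of these data known. Named genes are the 10, Lrp2, Trp53, up to 4 called genes per list with the smallest adjusted p in either genotype comparison, called genes of a list's minority direction, and the 5 nearest to Cdkn1a. Genes not called, such as Eda and Cdkn1b, and Gm42418 were added after values were seen. A gene given by this rule is not reported here.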

Additional observations from a re-analysis of the deposited data

Results flagged for a closer look

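In 6 of 36 groups of 6 libraries, the highest value of a gene stood apart. Its gap to the next one, as a share of the group's range, was above Dixon's 95% critical value for 6 samples. That critical value assumes normally distributed values, and the groups share the same libraries. The 6 groups were therefore not set against a number given by chance. In KO at 2 weeks, replicate 3 was highest for Cdkn2b with 7.34 CPM, the next library having 4.08 CPM, and for Phlda3 with 15.6 CPM, the next having 9.99 CPM. That library also had the highest summed leukocyte markers of its group, 1900 CPM. Ccng1 had 356 CPM in replicate 2 of KO at 2 weeks, the next library having 239 CPM. In WT at 2 weeks, Cdkn1a had 12.9 CPM in replicate 5, the next library having 9.74 CPM, and no KO library was as low. At 12 weeks, Eda2r had 6.56 CPM in replicate 3 of KO, the next library having 4.62 CPM, and that library had the highest summed injury markers of its group, 6150 CPM. Trp53inp1 had 93.2 CPM in replicate 2 of KO at 12 weeks, the next library having 56.3 CPM. The part of the marker levels in these values was not tested.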

How the results depend on the processing

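The 5 calls at 2 weeks and the 7 at 12 weeks held under DESeq2, both other scalings, both other filters, the replicate block, the fit of all 24 libraries and each library left out, and dropping the filter added Cdkn2a at both times. Of 492 values of single genes under alternatives, 468 kept their direction and side of the threshold, 22 lost a call (all for Phlda3, 12 against 2 weeks in KO), 1 gained one (Trp53inp1 at 2 weeks) and 1 turned. The turned value was Ccng1 at 2 weeks, -0.07 without replicate 2 of KO at 2 weeks (range over left-out libraries -0.07 to 0.15). The cause was not tested. The interaction called 30 genes with edgeR and 133 with DESeq2, and 22 to 56 with 1 library left out, the highest without replicate 3 of KO at 12 weeks; none of these fits called 1 of the 9 genes. For 12 against 2 weeks in KO, the number of the 9 genes called was 0 under RLE scaling, upper-quartile scaling, a mean of at least 1 CPM and the replicate block, and 0 to 1 with 1 library left out. In WT it was 1 to 2. Same-numbered libraries did not pair, and the replicate block called 5103 genes at 2 weeks (5 of the 9), 5950 at 12 weeks (7 of the 9) and 27 for the interaction (0 of the 9). Depth limits Cdkn2a most, with 2 and 4 counts in the WT groups.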

Other observations

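Genes of the senescence-associated secretory list moved in both directions. Of 22 tested, 15 were higher and 2 lower in KO at 2 weeks, and 15 were higher and 5 lower at 12 weeks. Over all genes tested, 18.2% were called higher and 13.4% lower at 2 weeks, and 20.7% and 17.7% at 12 weeks. The numbers of lower genes are near these shares and are not read as a result for the list. The chemokine genes Cxcl1 (log2 fold change 3.41 and 2.52) and Ccl2 (3.84 and 2.78) rose at both times, and Cxcl2 averaged 5.07 ± 1.03 CPM in KO and 0.0379 ± 0.059 CPM in WT at 2 weeks. Vegfa (-0.62 and -0.43) and Igfbp5 (-0.42 and -0.70) were lower at both times, and Igfbp3 (-0.97), Igfbp4 (-0.60) and Mmp13 (-0.85) at 12 weeks. Several of these genes are also expressed by leukocytes, whose markers were higher in KO, and that part was not tested. A list of 4 other senescence genes had 1 higher and 1 lower in KO at 2 weeks. At 12 weeks it had 1 higher and 2 lower, beside the same shares over all genes. With so few genes, these counts are not read as a result for the list. Lmnb1, a nuclear lamina gene whose loss is a common senescence marker, was higher in KO (0.93 and 1.16). The lysosomal enzyme genes Fuca1 (-0.30 and -0.35) at both times and Glb1 (-0.44) at 12 weeks were lower, and Hmgb1 was called at neither time. The part of changed cell type shares in these values was not tested. Glb1 encodes the enzyme behind senescence-associated beta-galactosidase staining.

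The integrated stress response also acts on Gdf15. Of 10 such genes tested, 6 were higher and 1 lower in KO at 2 weeks, and 5 higher and 1 lower at 12 weeks. All genes tested had shares of 18.2% higher and 13.4% lower at 2 weeks, and 20.7% and 17.7% at 12 weeks. Chac1 was called at neither time, and a link of this response to the Gdf15 levels was not tested. Atf3 (2.77 and 2.61), Mthfd2 (1.17 and 1.45) and Asns (1.44 and 1.13) were higher, and Shmt2 (-0.46 and -0.58) was lower. Gfral, the brainstem receptor of GDF15, was near or at 0 in the kidney libraries, and its co-receptor gene Ret was called at 2 weeks with 0.787 ± 0.614 CPM in KO and 0.315 ± 0.12 CPM in WT.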
